A study of Mus musculus with 61 samples.

Results

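The hs4 region of the immunoglobulin heavy chain locus, Igh, is described here as seen in Tri-C maps of mouse primary B cells. It comprises the 35 bins of 1 kb numbered 26 to 60, around the hs4 viewpoint in bin 32. Its members are all pairs with both ends in these bins, 630 of the 27495 pairs of a map. Members were chosen by position alone and not by any measured value, although earlier results of these data were known. Each pair is a place in the map where 2 fragments were joined to the captured viewpoint in 1 ligation product. The near part holds the 120 pairs within bins 26 to 40, which reach from 6 kb before the hs4 bin to 8 kb past it. The far part holds the 210 pairs within bins 41 to 60, which lie 9 to 28 kb past the hs4 bin on the side of the constant region genes. The other 300 pairs join the parts.

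The region beyond the last constant gene of Igh is known as the 3′ regulatory region, an array of enhancers of which hs4 is the outermost of the core set. The others of that set are hs3a, hs1,2 and hs3b, and hs3a and hs3b are near-identical copies in opposite orientation. These enhancers are known to loop to switch regions and to the intronic enhancer Emu, and deletion of the whole array impairs germline transcription and class switching. The maps carry no coordinates, so bins were not assigned to enhancers other than the hs4 viewpoint itself. No sequence is printed for the same reason.

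The 61 libraries came from 5 capture probes. The growth protocol, the same for every library, names LPS and IL4, a pair of agents that drives switching to IgG1. In the activation series, cells were taken at 0, 48 and 72 h, and the Emu and hs4 probes had 2, 3 and 3 libraries at these times. One of the libraries at 0 h combines 2 replicates, per its title. For IgG1, titles name clone 1 and clone 2, and the labels do not say what the clones are. Each clone had 2, 3 and 3 libraries. These were averaged over the clones by replicate number, although the numbers did not pair the samples. SDs, SEs and p-values from these averages, also in the comparison with Emu, therefore leave out the spread between clones. In the TPL series, Emu was captured in cells after 72 h of activation: 3 libraries untreated, 3 after 1 h and 3 after 3 h of TPL, a compound whose name the labels do not spell out. In the LPS series, so called from its titles, the IgG3 probe had 3 libraries at day 3 and 3 at day 0. Titles of these 3 series name B18 AIDKO cells, which lack the deaminase AID by that name, while the treatment label of cells at 0 h and day 0 reads WT. In the Spt5 series, cells were activated for 62 h and depleted of the elongation factor Spt5 with 4HT over the last 32 h. The IgG1 probe had 5 depleted and 4 control libraries of clones 1 and 2, and the IgG2a probe had 3 depleted and 2 control libraries. The probe label of IgG1 reads pool capture in both series, while titles use the word pool only in the Spt5 series. Titles of the Spt5 series do not name AIDKO, and the labels give no activation time for its controls. Replicates are samples the labels number apart. Nothing says whether they came from separate animals or cultures, so p-values measure the spread between samples, which may be technical.

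Depth was recovered from the values as whole contacts. Libraries held between 4020 and 89789 contacts (median 20694), of which 708 to 9565 lay within the hs4 region. Values below are percentages of each map's total signal, and a rise in one place of a map therefore lowers the share of others. Of the 630 pairs, 628 held signal in at least 1 library, 19 in all 61, and 2 in none. A single sample filled 62 to 385 pairs. Intervals and tests cover the spread between samples and not the question whether contacts are independent molecules.

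Seen from outside, the region held 4.14% to 24.9% of a map over 45 samples with the Emu, IgG1, IgG2a and IgG3 viewpoints. From the hs4 viewpoint, which lies within it, it held 22.7% to 33.1% over 8 samples. The hs4 viewpoint is described apart for that reason. On recovered contacts these levels were higher, at 5.47% to 48.2% over the 61 libraries. The Emu libraries at 48 h held 27.3%, 27.5% and 27.4% of contacts in the region, against 15.0%, 14.7% and 13.7% of signal. Stretches of the map are compared here on signal alone. The Emu viewpoint gave the region more signal than any of the 4 other stretches of 35 kb without the viewpoint, in each of its 6 conditions. For example, at 72 h the region held 13.2% of the Emu map while those stretches held 3.99% to 12.04%. The IgG1 map at 0 h had the opposite order, with 4.21% in the region and 8.00% to 11.97% in the 3 such stretches.

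Most of this signal was short range. Seen from outside, pairs of a bin with itself held 50.04% to 72.5% of the region's signal in a sample, with a median of 59.8%. Pairs 10 kb or more apart held 0.185% to 18.4%, with a median of 9.95%. From hs4 the same-bin pairs held 42.7% to 58.9%, and pairs 10 kb or more apart 10.2% to 22.2%. The near part, with 15 of the 35 bins, held a median of 50.995% of the region's signal seen from outside. The far part, with 20 bins, held a median of 38.4%. The profile along the region was uneven. Averaged over conditions, it peaked for most probes at bin 30, which lies 2 kb before the hs4 bin. This bin was the highest for the Emu, IgG1, IgG3 and hs4 probes, with 8.77%, 8.59%, 7.65% and 17.1% of the region's contact ends averaged over conditions. The next bins were 35 and 48 for Emu (6.54% and 6.37%) and for IgG3 (6.65% and 5.96%). For IgG1 they were bins 29 and 27, with 6.52% and 5.79%, an average over the activation and the Spt5 series. Taken apart, bins 30, 27 and 35 led at 72 h of activation (10.1%, 6.47% and 6.33%), and bins 29, 30 and 28 led in the Spt5 controls (9.52%, 8.48% and 6.99%). For hs4 they were bins 31 and 35, with 12.6% and 7.19%. The IgG2a probe, used in the Spt5 series alone, had bins 29, 28 and 60 highest, at 5.87%, 5.24% and 4.52%. Bins 30 and 48 were each among the 5 highest in 13 of 15 conditions seen from outside, and bin 27 in 12. Bin 30 did not lead in every condition of these probes. Bin 48 led at IgG3 day 0 (5.94%, bin 30 at 4.76%) and at Emu after 1 h of TPL (8.58%, bin 30 at 8.05%). Bin 35 led at Emu with no TPL (10.1%, bin 30 at 8.28%), and bin 29 at IgG1 0 h (5.76%, bin 30 at 5.58%).

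**Figure D1:**
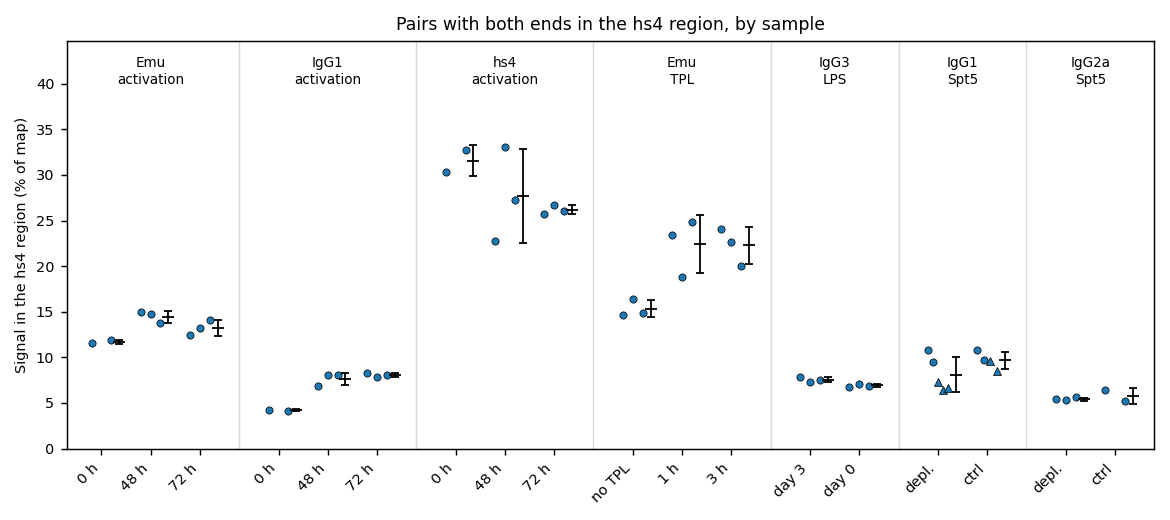
Signal of pairs with both ends in the hs4 region (vertical axis, % of the map's total) for each sample, grouped by probe and series. Points are samples (for IgG1 in the Spt5 series, circles are clone 1 and triangles clone 2) and bars the mean ± SD; the IgG1 samples at 48 h and 72 h lie at 6.87% to 8.26%, above both at 0 h (4.14% and 4.28%).

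The first question was how the hs4 region is contacted as B cells are activated. From the IgG1 viewpoint the region's share nearly doubled. It held 4.28% and 4.14% in the samples at 0 h, 6.87%, 8.01% and 8.07% at 48 h, and 8.26%, 7.86% and 8.09% at 72 h. All samples at 48 h and 72 h lay above both at 0 h. The mean was 8.07 ± 0.20% (SD, n = 3) at 72 h against 4.21 ± 0.10% (n = 2) at 0 h, a log2 change of 0.94 (SE 0.09, limma adjusted p = 4.0e-08). At 48 h it was 7.65 ± 0.68% (n = 3), with a log2 change of 0.86 (SE 0.09, limma adjusted p = 1.5e-07). Between 72 h and 48 h the change was 0.08 (95% interval -0.07 to 0.24, limma adjusted p = 0.88).

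The near part around hs4 carried most of the rise. It held 1.61% and 1.73% at 0 h, 3.51%, 4.55% and 4.11% at 48 h, and 4.10%, 3.89% and 4.07% at 72 h. The groups did not overlap, and the log2 change was 1.26 at both times (limma adjusted p = 2.3e-08 at 48 h and 2.6e-08 at 72 h). The far part changed less, with 2.83 ± 0.25% at 48 h and 3.08 ± 0.05% at 72 h against 1.99 ± 0.22% at 0 h. The log2 change was 0.50 at 48 h and 0.63 at 72 h (limma adjusted p = 0.0037 and 3.4e-04). Without replicate 2 of the 0 h samples the far part's log2 difference at 48 h was 0.39 and was not called (limma adjusted p = 0.074), nor was it in clone 1 alone (0.37, limma adjusted p = 0.11). In clone 1 alone it was not called at 72 h either (0.32, limma adjusted p = 0.13). Pairs that join both parts rose at 72 h, to 0.973 ± 0.087% against 0.548 ± 0.036% at 0 h (log2 0.81, limma adjusted p = 0.0017). At 48 h they held 0.765 ± 0.137%, with a log2 difference of 0.45 (limma adjusted p = 0.060), which was called without replicate 2 of the 48 h samples (0.60, limma adjusted p = 0.032) and on recovered contacts (0.69, limma adjusted p = 0.0045).

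The balance within the region shifted with this. The near part held 49.6%, 49.5% and 50.3% of the region's signal at 72 h and 51.2%, 56.8% and 51.002% at 48 h, against 37.7% and 41.8% at 0 h. Neither later group overlapped the samples at 0 h. The exact two-sided permutation test gave p = 0.10 for each, the smallest that 3 samples against 2 allow, and 0.21 after Benjamini-Hochberg adjustment over 15 comparisons. With the clones kept apart and compared within each clone, the near part's share was higher by 10.1 percentage points at 72 h and 12.7 at 48 h (exact permutation p = 0.01 for each, the smallest possible, not adjusted). Pairs with both ends in the region made up 52.2 ± 2.3% of all pairs with at least 1 end there at 72 h against 42.1 ± 1.5% at 0 h (exact permutation p = 0.10, adjusted 0.38).

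Both clones showed the rise, to unequal levels. In clone 1 the region held 5.98%, 6.66% and 6.23% at 48 h and 7.27%, 6.55% and 5.90% at 72 h, against 4.03% in both libraries at 0 h. In clone 2 it held 7.76%, 9.36% and 9.90% at 48 h and 9.26%, 9.18% and 10.3% at 72 h, against 4.53% and 4.25% at 0 h. Fitted alone, clone 1 changed by 0.70 on the log2 scale at 72 h (limma adjusted p = 3.6e-04) and clone 2 by 1.12 (limma adjusted p = 7.8e-08). The difference between the clones in this series was not tested.

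At a resolution of 5 kb blocks, 27 of the 28 block pairs in the region had enough signal to test. At 72 h 9 of them rose and 0 fell, while 16.7% of all 426 block pairs tested over the map rose and 17.1% fell. At 48 h 8 rose and 1 fell, while 12% of all block pairs rose and 14.6% fell. The median log2 change of the region's block pairs was 0.81 at 72 h and 0.70 at 48 h, and that of all block pairs was -0.01 and -0.13. The count of called pairs at 48 h was 5 without replicate 2 of the 48 h samples, 3 in clone 1 alone and 4 in clone 2 alone, and at 72 h it was 3 in clone 1 alone. For these refits the share called over all block pairs is not given.

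The called block pairs with the largest rise lay along the diagonal near hs4 and at the edge between the parts. Blocks 36-40 and 41-45, 4 to 13 kb past the hs4 bin, held 0.134 ± 0.039% with each other at 72 h against 0.0190 ± 0.0163% at 0 h (log2 2.13, SE 0.42, limma adjusted p = 6.0e-04). At 48 h this pair held 0.0787 ± 0.0202%, a log2 change of 1.47 (limma adjusted p = 0.013). These changes are on the log2 scale of value plus 50 of 300000, which understates changes of such low values. The signal minimum was set on the mean over all samples of the fit. At 0 h this pair lay below that minimum. It was therefore tested only through its later samples, and its rise is given as a description alone. Block 26-30 with itself, the first 5 kb of the region, held 1.82 ± 0.01% at 72 h and 1.82 ± 0.29% at 48 h against 0.702 ± 0.013% at 0 h, with log2 changes of 1.36 and 1.34. Block 36-40 with itself rose to 0.297 ± 0.031% at 72 h, against 0.110 ± 0.014% at 0 h (log2 1.31). Block pair 31-35 and 36-40 rose at 48 h, to 0.0817 ± 0.0164% against 0.0279 ± 0.0237% at 0 h (log2 1.24, limma adjusted p = 0.049). It too lay below the signal minimum at 0 h and was tested only through its later samples. One long-range pair went the other way. Blocks 36-40 and 56-60, about 20 kb apart, held 0.0557 ± 0.0313% at 48 h against 0.1504 ± 0.0044% at 0 h (log2 -1.32, limma adjusted p = 0.028). At 72 h its log2 difference was -0.79 and was not called. Within this block pair at 0 h, bins 36 and 57 held 0.0803 ± 0.0194% of the map with each other, and bins 36 and 59 held 0.0338 ± 0.0477%. These are few contacts. Over all libraries bins 36 and 57 shared a median of 3 and at most 19, and bins 36 and 59 held signal in 7 of 61 libraries.

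**Figure D2:**
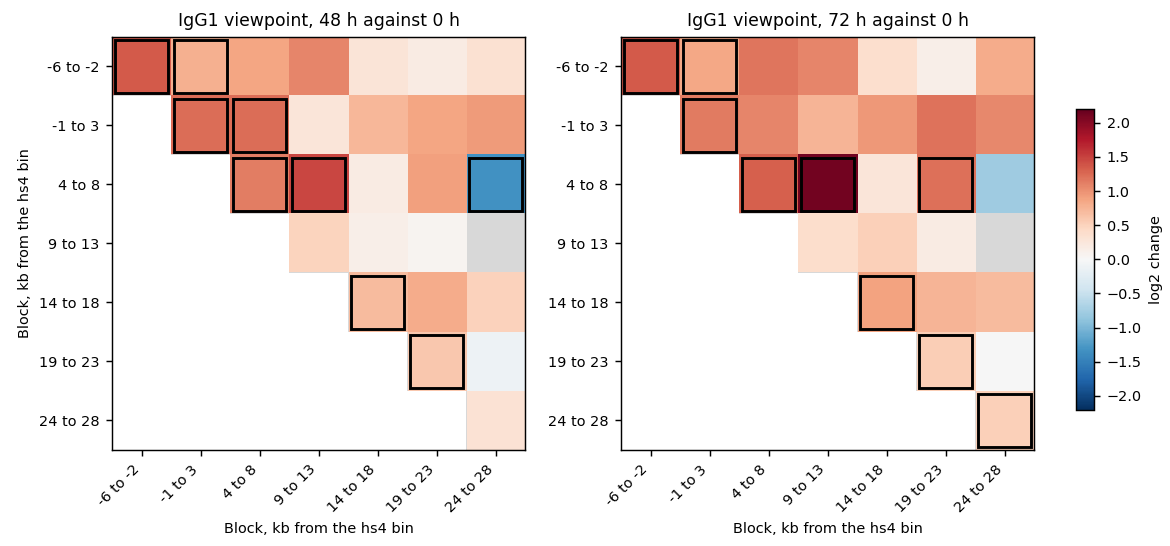
Log2 change in signal (colour) of the 28 pairs of 5 kb blocks in the hs4 region from the IgG1 viewpoint, at 48 h (left) and 72 h (right) against 0 h. Axes give each block's distance from the hs4 bin in kb, outlined squares passed adjusted p 0.05, grey squares were below the signal minimum; most outlined rises lie on or next to the diagonal, with blocks 36-40 and 51-55 (19 to 23 kb) at 72 h as the exception, and the only outlined fall joins blocks 36-40 (4 to 8 kb) and 56-60 (24 to 28 kb) at 48 h.

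Single bins gave the same picture at 1 kb. Of 34 bins of the region tested, 16 rose and 0 fell at 72 h, of which 11 were in the near part, while 24.1% of all bins of the map rose and 24.1% fell. At 48 h 12 rose and 0 fell, 10 of the 12 in the near part, while 23.1% of all bins rose and 13.7% fell. Bin 30 had the largest rise at both times. The mean signal of its ends was 0.818 ± 0.031% at 72 h and 0.741 ± 0.079% at 48 h, against 0.235 ± 0.125% at 0 h (log2 1.83 and 1.68, limma adjusted p = 0.0012 and 0.0022). Bin 39 followed at 72 h with 0.0484 ± 0.0152% against 0.0043 ± 0.0061% at 0 h (log2 1.64). It is one of the emptiest bins of the region and held no signal in 4 libraries. At 0 h its mean lay below the signal minimum, so it was tested only through its later samples. The hs4 bin itself held 0.364 ± 0.012% at 72 h and 0.425 ± 0.054% at 48 h against 0.129 ± 0.003% at 0 h, with log2 changes of 1.39 and 1.596. Bin 27, 5 kb before it, rose by 1.44 at 48 h on the log2 scale, to 0.568 ± 0.126% against 0.196 ± 0.016% at 0 h. In the far part bins 48 and 51 rose at both times. Bin 48, chosen here as a high bin of several probes, stood at 0.440 ± 0.066% at 72 h against 0.201 ± 0.055% at 0 h (log2 1.08).

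**Figure D3:**
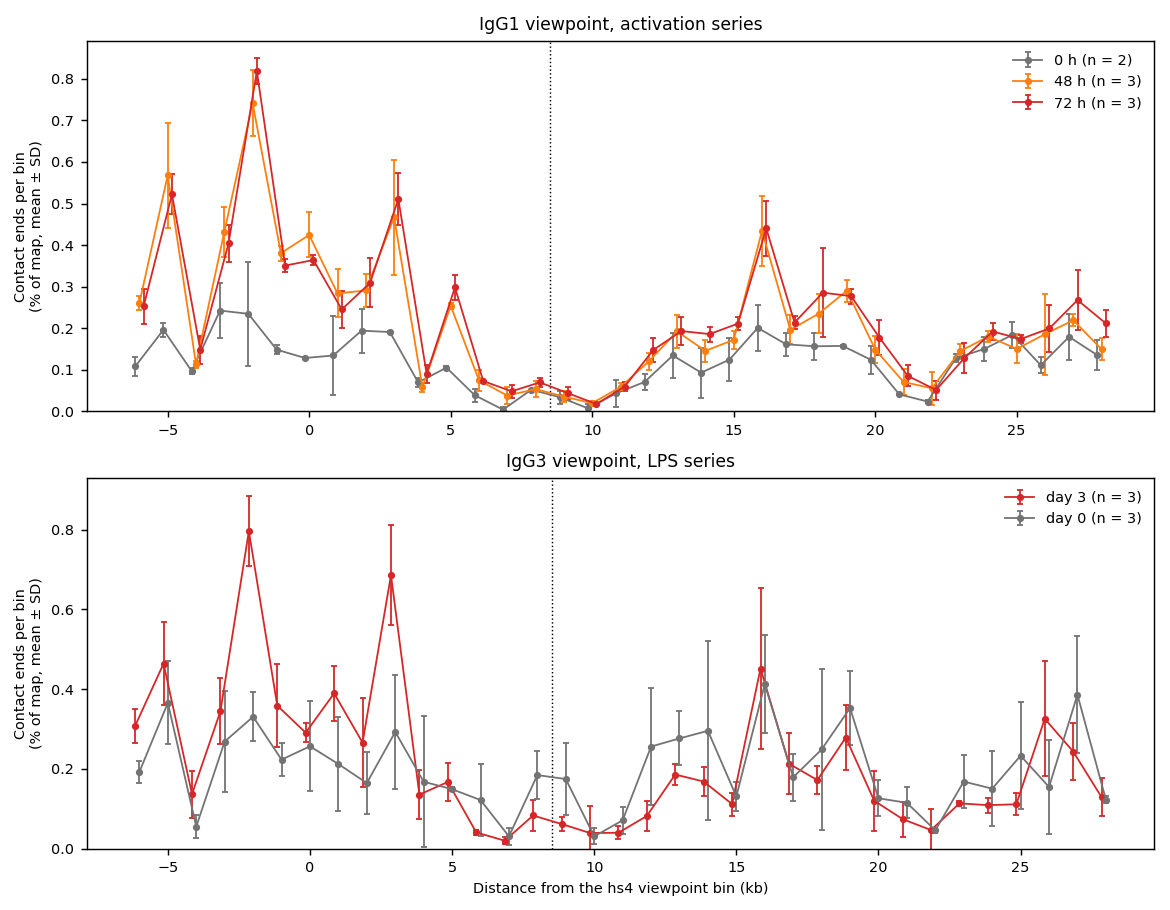
Contact ends per 1 kb bin of the hs4 region (vertical axis, % of the map, mean ± SD over samples) against distance from the hs4 bin in kb, for the IgG1 viewpoint at 0, 48 and 72 h (top) and the IgG3 viewpoint at day 3 and day 0 (bottom). The dotted line parts the near from the far part; at IgG1, bin 30 (at -2 kb) reaches 0.818% at 72 h against 0.235% at 0 h.

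From Emu the region was higher after activation by less. The region held 11.5% and 11.9% of the map at 0 h, 15.0%, 14.7% and 13.7% at 48 h, and 12.4%, 13.2% and 14.1% at 72 h. Every later sample lay above both at 0 h. The means were 14.5 ± 0.7% at 48 h and 13.2 ± 0.9% at 72 h against 11.7 ± 0.2% at 0 h. The log2 differences of 0.30 (95% interval 0.12 to 0.49) and 0.17 (-0.01 to 0.36) did not pass the threshold (limma adjusted p = 0.11 and 0.33). When contacts within 10 kb of the Emu viewpoint were left out, the rise at 48 h was called, at 0.68 (limma adjusted p = 8.3e-05). On recovered contacts with voom both rises were called, at 0.58 and 0.44 (limma adjusted p = 1.0e-07 and 6.0e-05). Of 27 block pairs of the region tested, 0 were called at 48 h, where 1 had an unadjusted p under 0.05, and 0 at 72 h, where 2 had. Over all block pairs 20.1% at 48 h and 19% at 72 h had such a p, a larger share than in the region. On recovered contacts the count at 48 h was 2. Of all 284 block pairs, 1.41% rose at 48 h, and 2.82% rose and 1.41% fell at 72 h. Without 1 of the replicates at 0 h, in turn, 1 block pair of the region was called at each time. For these refits and for recovered contacts, the share called over all block pairs is not given. The near part held 51.1 ± 3.5% of the region at 72 h and 52.5 ± 1.4% at 48 h against 50.96 ± 0.92% at 0 h (exact permutation p = 1 and 0.40). On recovered contacts its share went the other way at 48 h. It was 52.1%, 50.4% and 49.9% against 55.3% and 55.8% at 0 h, without overlap (exact permutation p = 0.10, the smallest possible). At 72 h that difference was -4.58 percentage points (exact permutation p = 0.20). For the region total, the difference between 72 h and 48 h was -0.13 on the log2 scale (95% interval -0.29 to 0.04, limma adjusted p = 0.97).

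The change at IgG1 exceeded that at Emu when the difference itself was tested, but at 48 h this depended on the processing. The effect at IgG1 minus that at Emu was 0.76 (SE 0.11) for the region at 72 h and 0.55 (SE 0.11) at 48 h on the log2 scale (limma interaction adjusted p = 2.7e-04 and 0.0062). For the near part it was 1.08 and 0.92 (limma interaction adjusted p = 3.3e-04 and 0.0039). For the far part it was 0.42 and 0.22 (limma interaction adjusted p = 0.14 and 0.50). With clone 1 of the IgG1 probe alone, the difference at 48 h was 0.34 for the region and 0.61 for the near part, and neither was called (limma interaction adjusted p = 0.17 and 0.12). Without contacts near either viewpoint, a setting added after the data were seen, the difference for the region was 0.56 at 72 h (limma interaction adjusted p = 0.012) and 0.09 at 48 h (0.90), and for the near part 0.88 (0.0050) and 0.46 (0.32). On recovered contacts with voom, also added, the difference for the region was 0.56 at 72 h (limma interaction adjusted p = 0.0024) and 0.40 at 48 h, not called, and that for the near part was called at both times. Of the block pairs, 26-30 with itself had a called difference at 72 h, of 1.33 (limma interaction adjusted p = 0.017).

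From hs4, whose viewpoint lies in bin 32, the region held 30.4% and 32.8% at 0 h, 22.7%, 33.1% and 27.3% at 48 h, and 25.76%, 26.71% and 26.04% at 72 h. The samples at 72 h lay below both at 0 h, and those at 48 h overlapped them. The log2 differences of -0.27 at 72 h (95% interval -0.53 to -0.01) and -0.20 at 48 h were not called (limma adjusted p = 0.31 and 0.49). On recovered contacts with voom both were, at -0.27 and -0.25 (limma adjusted p = 0.010 and 0.022). Pairs between the near and the far part held 2.87%, 3.35% and 3.17% at 48 h and 3.76%, 4.203% and 3.73% at 72 h, against 6.20% and 6.00% at 0 h, without overlap. The fall at 48 h was called (log2 -0.96, SE 0.19, limma adjusted p = 0.0088), and the difference at 72 h was not (-0.65, limma adjusted p = 0.089). This call did not hold without replicate 1 of the 0 h samples (-0.94, limma adjusted p = 0.10) or without replicate 2 (-0.99, limma adjusted p = 0.063). It was also lost without pairs of a bin with itself (-0.77), without bins 30 to 34 (-0.71) and with median-of-ratios scaling (-0.91). The far part held 6.64 ± 0.81% at 48 h and 6.96 ± 0.54% at 72 h against 9.66 ± 0.32% at 0 h, again without overlap, and was not called (log2 -0.55 and -0.47, limma adjusted p = 0.080 and 0.19). On recovered contacts with voom both falls of the far part were called, at -0.498 and -0.40 (limma adjusted p = 0.0016 and 0.016). The near part's level was 17.9 ± 4.3% and 15.3 ± 0.3% against 15.8 ± 2.2%. As a share of the region it stood at 64.4 ± 3.3% and 58.5 ± 2.2% against 49.95 ± 4.14% at 0 h (exact permutation p = 0.10 for each, the smallest possible, adjusted 0.21).

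Block pairs of the region seen from hs4 gave 0 calls of 28 at either time. At 48 h 10 of the 28 had an unadjusted p under 0.05, and at 72 h 4 had, which is 35.7% and 14.3%. Over all block pairs 17.2% had such a p at 48 h and 14.5% at 72 h. On recovered contacts 5 were called at 48 h and 0 at 72 h, but the share called over all block pairs is not given for that fit. In the main fit the median log2 difference of the region's block pairs was -0.83 at 48 h and -0.35 at 72 h, beside -0.13 and 0.01 over all block pairs. Of all 447 tested in the main fit, 0.895% rose and 0.447% fell at 48 h, and 0.671% rose at 72 h.

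The next question was how TPL changes the contacts of activated cells. The region's share of the Emu map rose after 1 h of TPL. It held 14.7%, 16.4% and 14.9% with no TPL, 23.5%, 18.8% and 24.9% after 1 h, and 24.1%, 22.7% and 20.05% after 3 h. All treated libraries lay above all untreated ones. The means were 22.4 ± 3.2% at 1 h and 22.3 ± 2.1% at 3 h against 15.3 ± 0.9% with no TPL (n = 3 each). The log2 changes were 0.54 at both times (SE 0.11, limma adjusted p = 0.010 at 1 h and 0.015 at 3 h). Between 3 h and 1 h the log2 difference was -0.00 (95% interval -0.22 to 0.22). These calls rest on single libraries. The rise at 1 h was not called without replicate 1 (0.50, limma adjusted p = 0.12) or 3 (0.46, limma adjusted p = 0.058) of the 1 h libraries or replicate 3 with no TPL (0.52, limma adjusted p = 0.051). That at 3 h was not called without replicate 1 (0.48, limma adjusted p = 0.20) or 2 (0.52, limma adjusted p = 0.17) of the 3 h libraries or replicate 3 with no TPL (0.52, limma adjusted p = 0.088). On recovered contacts with voom the rise at 3 h was 0.16 (limma adjusted p = 0.50).

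Each of the region's parts was higher in every TPL library than in every library with no TPL, and none was called on its own. The near part held 11.2 ± 1.5% at 1 h and 11.1 ± 1.5% at 3 h against 7.73 ± 1.03% with no TPL, and the far part 8.68 ± 1.46% and 8.20 ± 1.13% against 5.88 ± 0.80%. Pairs between them held 2.56 ± 0.80% and 2.93 ± 0.10% against 1.72 ± 0.39%. The log2 differences ran from 0.48 to 0.79, with limma adjusted p from 0.11 to 0.47. The near part's share of the region was 49.9 ± 2.2% at 1 h and 49.9 ± 3.9% at 3 h against 50.3 ± 4.4% with no TPL (exact permutation p = 1 for each). Of the 28 block pairs 0 were called at either time, with 3 and 4 at an unadjusted p under 0.05 and 0 on recovered contacts. These are 10.7% and 14.3% of the region's pairs, beside 11.1% and 9.46% over all block pairs. Of all 296 block pairs 0.676% rose and 0.338% fell at 1 h, and 0.676% rose at 3 h. Depth was 4020 to 6882 recovered contacts with no TPL, 6527 to 13974 at 1 h and 6415 to 10872 at 3 h, and untreated libraries carry a mark at the end of their titles that the treated ones lack. The part of depth or of that mark in the rise was not tested.

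In the LPS series the near part rose at the IgG3 viewpoint, while the region's total differed little. The region held 7.84%, 7.33% and 7.51% at day 3 against 6.79%, 7.12% and 6.91% at day 0, without overlap. The log2 difference was 0.12 (95% interval -0.05 to 0.30, limma adjusted p = 0.87). The near part held 4.45%, 3.85% and 4.12% at day 3 against 2.68%, 2.69% and 2.26% at day 0, without overlap, and rose by 0.70 on the log2 scale (SE 0.15, limma adjusted p = 0.019). The far part held 2.89%, 2.57% and 2.71% against 3.23%, 3.31% and 3.82%, also without overlap, with a log2 difference of -0.34 that was not called (limma adjusted p = 0.49). The near part thus made up 56.8%, 52.5% and 54.8% of the region at day 3 against 39.4%, 37.7% and 32.7% at day 0. The exact permutation p was 0.10, the smallest that 3 against 3 allow, and 0.21 adjusted. The near part's rise lost its call without replicate 3 at day 0 (0.62, limma adjusted p = 0.22) or replicate 1 at day 3 (0.65, limma adjusted p = 0.10), with a pseudocount of 10 (limma adjusted p = 0.078), without pairs of a bin with itself (limma adjusted p = 0.41) and without bins 30 to 34 (limma adjusted p = 0.50). Of 23 block pairs tested 0 were called, 6 (26.1%) had an unadjusted p under 0.05, beside 8.15% over all block pairs, and on recovered contacts 1 was called. For recovered contacts the share called over all block pairs is not given. Of all 368 tested in the main fit 0.543% fell. No single bin of the region was called by limma here. Bin 30 held 0.797 ± 0.088% at day 3 against 0.331 ± 0.062% at day 0, and bin 35 held 0.686 ± 0.125% against 0.293 ± 0.143%.

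**Figure D4:**
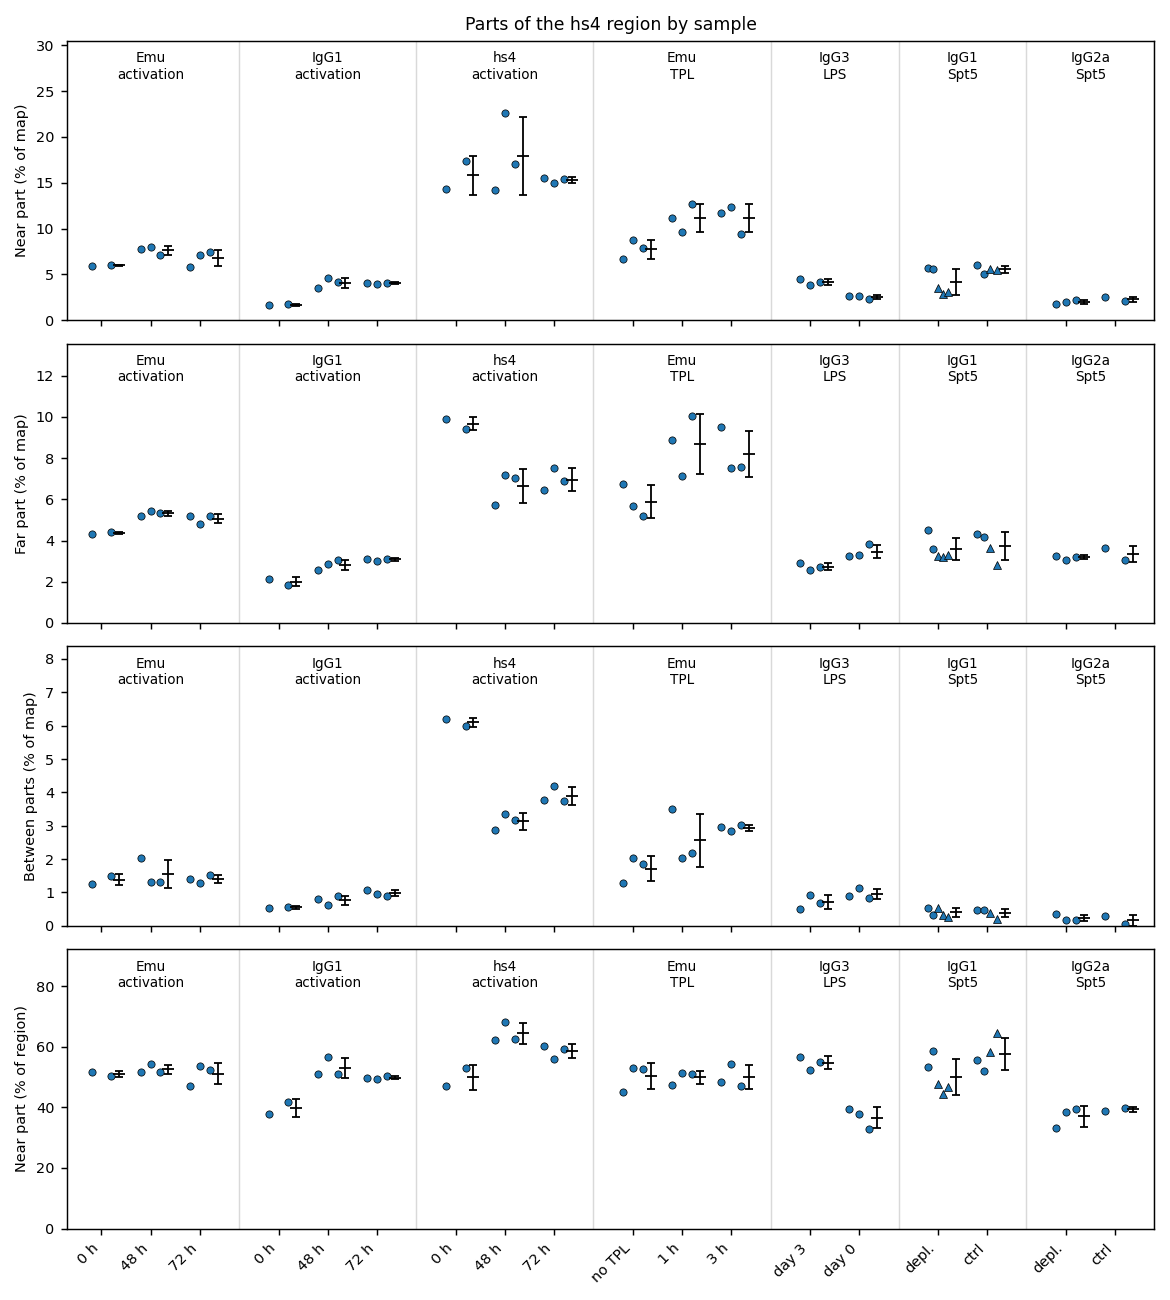
Signal of the near part, the far part and the pairs between them (upper 3 panels, % of the map) and the near part's share of the region (bottom panel, %) for each sample, with mean ± SD. Points are samples (for IgG1 in the Spt5 series, circles are clone 1 and triangles clone 2); the near part's share lies at 49.5% to 56.8% in the IgG1 samples at 48 h and 72 h and at 37.7% and 41.8% at 0 h.

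The last question was how loss of Spt5, which promotes elongation by RNA polymerase II, bears on the region. At the IgG1 viewpoint the region held 10.8% and 9.49% in depleted libraries of clone 1 and 7.27%, 6.38% and 6.64% in those of clone 2. Control libraries held 10.8% and 9.71% in clone 1 and 9.57% and 8.52% in clone 2. With clone as a term the log2 difference was -0.24 (SE 0.09, 95% interval -0.41 to -0.07) and was not called (limma adjusted p = 0.13). It was called without replicate 3 of the clone 1 controls (-0.30, limma adjusted p = 0.035), without replicate 3 of the depleted clone 1 libraries (-0.31, limma adjusted p = 0.024) and on recovered contacts (-0.26, limma adjusted p = 0.019). Depth was 30502 to 89789 contacts in depleted and 44389 to 70736 in control libraries.

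The clones did not move together, which was looked at after seeing the values. In clone 2 the region fell by 0.42 on the log2 scale (SE 0.08, limma adjusted p = 0.0034), and in clone 1 the difference was -0.02 (SE 0.09, limma adjusted p = 0.96). The fall of clone 2 lay in the near part, with 3.46%, 2.82% and 3.09% in depleted against 5.58% and 5.50% in control libraries (log2 -0.83, limma adjusted p = 1.4e-04). Clone 1 held 5.74% and 5.57% in the near part against 6.03% and 5.04%, and its groups overlapped (log2 0.04, limma adjusted p = 0.95). The effect in clone 2 minus that in clone 1 was -0.86 for the near part (SE 0.15, limma adjusted p = 0.0042) and -0.40 for the whole region (limma adjusted p = 0.13). The far part differed by 0.03 in clone 2 and -0.08 in clone 1, and neither was called.

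One block pair of the 18 tested in the region fell and 0 rose, while 3.93% of all block pairs fell and 3.49% rose. It was block 26-30 with itself, at the outer edge beyond hs4, with 1.98 ± 0.89% in depleted (n = 5) against 3.12 ± 0.40% in control libraries (n = 4; log2 -0.70, SE 0.20, limma adjusted p = 0.049). Its log2 change was -1.31 in clone 2 and 0.03 in clone 1, and the difference between clones was -1.34 (limma adjusted p = 0.0019). The call was lost under most alternatives, among them leaving out any of replicate 1 of the clone 1 controls, replicate 1 or 2 of the clone 2 controls, or any of the 3 depleted clone 2 libraries, each of which gave 0 calls. Without replicate 4 of the depleted clone 1 libraries 2 block pairs were called, and the share over all block pairs is not given for that refit. Of the 35 single bins 2 fell, and 0 rose, while 7.69% of all bins fell and 3.17% rose. They were the neighbours 26 and 27, with 0.131 ± 0.043% and 0.327 ± 0.127% of ends in depleted against 0.280 ± 0.072% and 0.616 ± 0.058% in control libraries (log2 -0.997 and -0.898, limma adjusted p = 0.039 and 0.031).

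At the IgG2a viewpoint the region held 5.40%, 5.28% and 5.61% in depleted against 6.39% and 5.16% in control libraries. The log2 difference was -0.08 (95% interval -0.29 to 0.13, limma adjusted p = 0.71), and that of the near part was -0.17 (limma adjusted p = 0.66). Of 12 block pairs tested 0 were called, with 0 at an unadjusted p under 0.05 and 0 on recovered contacts. Over all block pairs 0.49% fell and 13.7% had such a p. Pairs with both ends in it made up 57.5%, 59.97% and 55.2% of pairs with at least 1 end there in depleted, against 76.8% and 76.1% in control libraries, without overlap (exact permutation p = 0.10, the smallest possible, adjusted 0.38). At IgG1 this share was 64.99 ± 8.64% in depleted against 73.3 ± 4.9% in control libraries, with overlap (exact permutation within clones p = 0.22, adjusted 0.41).

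Comparisons of later against earlier treated groups called nothing in the region at any viewpoint. These were 72 h against 48 h at Emu, IgG1 and hs4, with 0, 0 and 4 block pairs at an unadjusted p under 0.05, and 3 h against 1 h of TPL, with 0. Over all block pairs 4.58%, 7.51%, 7.83% and 3.72% had such a p, in the same order. By limma 0 were called in each, and on recovered contacts 1 in the comparison of 3 h with 1 h. For recovered contacts the share called over all block pairs is not given. In the main fit, 0.235% of all block pairs fell between 72 h and 48 h at IgG1.

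Certain pairs of the region set the Spt5 series apart from the rest, which was seen only after the values were known. They were picked on their filling itself. The first kind held signal in at least 40 of the 47 other libraries and at most 1 of the 14. The second kind held signal in at least 13 of the 14 and at most 10 of the 47. No count is given for pairs outside the region, so this is not shown to be particular to it. The pair of bins 41 and 51, 10 kb apart, held signal in 1 of 14 libraries of the Spt5 series and in 47 of 47 others. The pair of bins 36 and 57, 21 kb apart, held signal in 0 of 14 and in 44 of 47. The reverse held for 5 short-range pairs. Bin 41 with itself was filled in 14 of 14 libraries of the Spt5 series and in 2 of 47 others, and bin 39 with itself in 13 of 14 and in 0 of 47. The pairs of bins 40 and 41 and of bins 41 and 42 were filled in 13 of 14 each, against 8 and 1 of 47, and bin 54 with itself in 14 of 14, against 7 of 47. The IgG1 libraries held 30502 to 89789 contacts in the Spt5 series and 12949 to 37221 in the activation series. Pairs 10 kb or more apart held 1.91% to 6.79% of the region's signal in IgG1 libraries of the Spt5 series and 8.34% to 14.9% in IgG1 samples of the activation series. Titles of the Spt5 series leave out the AIDKO name, without giving another genotype, and name the IgG1 capture differently. These points cannot be told apart here from other differences between the series. Levels of the region were therefore tested only within a series. The bin shares averaged per probe, and the shares of distant pairs just given, span series and were not tested.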

How the data were processed

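Tri-C libraries were made by crosslinking, NlaIII digestion, ligation and probe capture, per the labels' protocols. Reads were aligned with Bowtie2 to build mm9, per the submitters' processing notes. The sources used here give no Bowtie2 version, duplicate handling or contact caller. Each deposited file is a signal matrix of 234 by 234 bins of 1 kb that sums to 300000, and the step to that sum is not stated. Values behaved as whole contacts divided by a whole number per bin. The contacts were recovered from that pattern within 0.04 of a whole number (98.9% to 100% of values off the diagonal and 70.4% to 100% on it, per library) and serve as depth and as an alternative, since the divisor was inferred and varied between libraries in 33 of the 35 bins of the region. Shares within the region and the region's share of the map carry that uncertainty.

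Signal was summed over the 630 pairs, their 3 parts and 1128 pairs of 5 kb blocks (28 in the region). Features with a mean of at least 100 were tested on log2(value + 50) with limma 3.58.1 in R 4.3.3, 1 fit per series and probe, with Benjamini-Hochberg adjustment over all features and a threshold of 0.05. The mean was taken over all samples of a fit, so a feature near empty in 1 group could be tested through the others. Bins were fitted likewise. Shares were tested by exact two-sided permutation. Clone was a term for IgG1 in the Spt5 series. Some of the fits were run on simulated data with changes larger than most seen here, and no result rests on that run. Text names, of the called block pairs and bins, up to 3 each way per comparison, and the 3 highest bins per probe. Members and lists were chosen with earlier results of these data known. Samples with the same replicate number did not deviate together (correlations -0.16 to 0.11). No 2 libraries were identical. Alternatives were other pseudocounts, filters, scalings, left-out samples and pairs, clones apart, and voom on recovered contacts.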

Additional observations from a re-analysis of the deposited data

Results flagged for a closer look

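The effect of activation on the hs4 region differed between 2 viewpoints when the difference itself was tested. The IgG1 effect minus the Emu effect was 0.76 at 72 h and 0.55 at 48 h for the region, and 1.08 and 0.92 for the near part, on the log2 scale. At 48 h neither difference was called without contacts near the viewpoints. The effect of Spt5 depletion at IgG1 differed between clones in the near part, by -0.86 (clone 2 minus clone 1, log2), a comparison added after the data were seen. Among the 5 depleted IgG1 libraries, one of clone 1 stood apart in the far part, with 4.49% of the map where the others held 3.22% to 3.59%. Its gap to the next was 0.713 of the group's range. The group pools 2 clones, and the clone 1 controls held 4.31% and 4.19%. In all, 8 measures were screened in each of 2 groups, and chance gives such a gap in about 1 of 20.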

How the results depend on the processing

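Of 1357 values recomputed under other settings, 1192 were rated the same. For log2 changes this meant the same direction and side of the threshold, and for counts staying within 1.5 times. For the near part's share it meant the same direction alone. All rises of the region and of its near part at IgG1 with activation held under the settings run. Causes of the changes below were not tested. For the region total (log2), leaving out contacts near the viewpoint gave a called 0.68 for Emu at 48 h. Voom on recovered contacts gave called values of 0.58 and 0.44 for Emu at 48 and 72 h, -0.25 and -0.27 for hs4 and -0.26 for IgG1 after Spt5 depletion, and 0.16, not called, for 3 h of TPL. Clone 2 alone gave -0.42 for Spt5 depletion. The TPL calls were lost without same-bin pairs (0.59, 1 h), without bins 30 to 34 (0.43 and 0.45) and under median-of-ratios scaling (0.30, 3 h). That scaling shifted the median of all block pairs by -0.15 to 0.13. Signs turned, with no call, for IgG1 at 72 h against 48 h (-0.0336, median of ratios), hs4 at 72 h against 48 h (0.0374, no same-bin pairs), 3 h against 1 h of TPL (0.0390, 0.0503 and 0.0246 without same-bin pairs, near contacts or bins 30 to 34) and IgG3 (-0.11, bins 30 to 34). Leaving out 1 sample gave -0.20 to 0.0706 for hs4 at 72 h against 48 h, -0.31 to -0.16 for Spt5 at IgG1, -0.24 to 0.0715 at IgG2a, 0.46 to 0.66 and 0.48 to 0.61 for 1 h and 3 h of TPL, and -0.12 to 0.0799 between them. With clone 1 alone the IgG1 effect minus the Emu effect at 48 h was 0.34 (region) and 0.61 (near part), not called. Nor was it called without contacts near the viewpoints (0.0920 and 0.459) or, for the region, with voom (0.405, limma adjusted p = 0.05002).

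The counts of called block pairs that follow are of the region, and no share over all block pairs is given for these settings. Counts became 2 (voom) and 1 (no near contacts) for Emu at 48 h, with 0 to 1 on leaving out a sample there and at 72 h. For IgG1 they became 3 and 4 at 48 h in clones 1 and 2 alone, 5 to 8 without a sample, and 3 at 72 h in clone 1. They became 5 for hs4 at 48 h (voom), 1 for 3 h against 1 h of TPL (voom), and 1 (voom) and 2 (no near contacts) for IgG3. The single called pair after Spt5 depletion at IgG1 became 0 in clone 1 alone, with clones summed or no clone term, under median of ratios, no filter, pseudocounts of 10 or 200, without same-bin pairs and with a replicate block, and 2 in clone 2 alone, with voom and without near contacts, with 0 to 2 on leaving out a sample. The replicate block changed no call of the region total (IgG1 0.83 and 0.92 at 48 and 72 h) and ended that of the near part at IgG3 (limma adjusted p = 0.33). The numbers did not pair the samples.

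The near part's share (percentage points) turned in sign in the cases below. There the exact permutation p could not go below 0.10, so no threshold could be passed. The cases were Emu at 48 h (-0.0516 without same-bin pairs, -4.77 on recovered contacts), Emu at 72 h (-0.650 without bins 30 to 34, -4.58 on recovered contacts, -1.19 to 2.11 without a sample), Emu at 72 h against 48 h (1.27, 0.192, -2.78 to 0.520), IgG1 at 72 h against 48 h (0.285, clone 1), Spt5 at IgG1 (2.198, clone 1), 1 h of TPL (-2.98 to 0.917), 3 h of TPL (-2.93 to 1.07) and 3 h against 1 h (-3.09 without same-bin pairs, -2.18 to 1.499). Uncalled log2 differences of single parts that lay near 0 also turned. For the near part these were IgG1 at 72 h against 48 h (0.0145, 0.0255, 0.0713 and 0.00672, and -0.11 to 0.0794 without a sample), hs4 at 48 h (-0.0149 to 0.32) and 72 h (0.0281, 0.103, and -0.18 to 0.10), Spt5 at IgG1 in clone 1 (0.0365), and 3 h against 1 h of TPL (0.0499, 0.188, and -0.10 to 0.11). For the far part they were IgG1 at 72 h against 48 h (-0.0481), hs4 at 72 h against 48 h (-0.0812, and -0.0320 to 0.13), Spt5 at IgG1 (0.0805, 0.0479 with the replicate block, 0.0259, and -0.11 to 0.0455) and IgG2a (0.148, and -0.19 to 0.0579), and 3 h against 1 h of TPL (0.0509, and -0.21 to 0.0357). For pairs between the parts they were Emu at 48 h (-0.0306, and -0.0741 to 0.26), 72 h (-0.0728, and -0.10 to 0.14) and 72 h against 48 h (-0.22 to 0.10), Spt5 at IgG1 (-0.0586, -0.194, and -0.12 to 0.28) and IgG2a (-0.35 to 1.88), and IgG3 (0.0957). Fits of single Spt5 clones, the difference between those clones, the IgG1 effect minus the Emu effect without near contacts or with voom, and shares on recovered contacts were added after the data were seen.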
